A study of Schizosaccharomyces pombe with 6 samples.

Results

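The fission yeast genes ipp1, mdb1, hcs1 and bcs1, all on chromosome I, are described here by the amount of replication protein A (RPA) over them and over 5 kb on either side. They were picked by name from earlier results of these data because RPA over them was higher without the checkpoint kinase Rad3, so the strain difference over the genes themselves is a description and is given with no test. They are 4 of 4145 protein-coding genes with at least 2 probes, and their windows hold 165 of 42641 nuclear probes. The samples were Schizosaccharomyces pombe cells of 2 strains, each with 3 two-colour Agilent tiling arrays on which immunoprecipitated DNA (IP) of the RPA subunit Ssb1 was set against its own input DNA in the other dye. The first strain, called rad3Δ, carries cdc25-22 and a deletion of rad3. The other, called WT as in the labels, carries cdc25-22 alone, a temperature-sensitive allele that both strains share and that stops cells before mitosis. Per the labels both were held for 4 h at 36.5 °C, let go at 25 °C and then given 6 mM hydroxyurea; the sources used here give no harvest time, and no control IP was analysed here.

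RPA is the complex that coats single-stranded DNA, which appears at replication forks and grows when polymerases stall while the helicase runs on. Hydroxyurea inhibits ribonucleotide reductase and so slows forks, and Rad3, the ATR-family kinase, is recruited through RPA and restrains further origin firing. In fission yeast, origins lie mostly in A+T-rich stretches between genes, so the position of a signal relative to a gene and to its flanking gaps is the question put to each locus.

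The genes have unrelated roles. ipp1 (SPAC23C11.05, 2140502 to 2141698, plus strand) encodes inorganic pyrophosphatase, which splits the pyrophosphate that polymerases release. mdb1 (SPACUNK4.14, 2882793 to 2885364, minus strand) encodes a BRCT-domain protein that binds phosphorylated histone H2A. hcs1 (SPAC4F8.14C, 2643524 to 2645254, plus strand) encodes hydroxymethylglutaryl-CoA synthase of the mevalonate pathway, and bcs1 (SPAC644.07, 2686064 to 2687821, plus strand) an AAA ATPase that assembles the iron-sulfur protein of respiratory complex III. Positions are those of the array design, which in this part of chromosome I match the reference ASM294v3, and the spans include annotated untranslated parts. The genes hold 4, 8, 7 and 7 probes and are 57.6%, 64.3%, 60.4% and 62.2% A+T.

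For ipp1, hcs1 and bcs1, the gap beside the gene on the side where rad3Δ RPA was highest is shown by its 200 bp of highest A+T content. The gaps were chosen because the signal crossed from them into the genes. The windows were picked by base content and not by RPA, and none overlaps the 3 neighbouring probes with the highest rad3Δ mean. That of bcs1 lies at the tRNA end of its gap, where the probe averaged 0.96 in rad3Δ, against 1.57 at the middle probe of the highest mean. The sequences are RefSeq's, assembly ASM294v3, plus strand, 5′ to 3′, and capitals mark runs of at least 5 A or 5 T.
ipp1 to pnk1 gap, chrI:2139871-2140070: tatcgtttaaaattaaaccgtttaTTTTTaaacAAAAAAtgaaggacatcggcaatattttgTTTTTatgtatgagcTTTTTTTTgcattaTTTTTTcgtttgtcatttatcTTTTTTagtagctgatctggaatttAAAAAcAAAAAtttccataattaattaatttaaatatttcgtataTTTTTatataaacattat
hcs1 to itr1 gap, chrI:2642458-2642657: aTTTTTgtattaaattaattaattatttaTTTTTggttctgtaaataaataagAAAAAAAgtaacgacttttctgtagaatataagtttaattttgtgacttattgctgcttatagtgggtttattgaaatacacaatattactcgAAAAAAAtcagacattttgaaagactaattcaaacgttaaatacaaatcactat
bcs1 to tRNA-Lys gap, chrI:2684771-2684970: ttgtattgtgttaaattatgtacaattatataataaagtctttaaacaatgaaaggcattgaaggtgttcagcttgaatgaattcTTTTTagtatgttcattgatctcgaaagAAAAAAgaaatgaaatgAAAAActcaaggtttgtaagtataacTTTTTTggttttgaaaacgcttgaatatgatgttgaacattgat
The windows are 80.5%, 78.5% and 74% A+T and hold 9, 4 and 4 such runs. Among the 2514 gaps of at least 200 bp between protein-coding or tRNA genes, the same window had a median of 74.5% A+T and 2 runs, 92.0% of the gaps held at least 1 run, 29.7% held at least 4, and 57.4% reached 74% A+T. By base content the bcs1 window is thus near the median gap, while those of ipp1 and hcs1 are above it. A longer gap offers more windows to pick from, and these gaps are 1034, 1203 and 1298 bp long, against a median of 608 bp. A run of A or T is a description of the sequence here and not a site.

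Values below are log2 of IP over input after each array's median was set to 0, and a gene's value is the mean of its probes. Centring takes out whatever moved genome-wide, so a level says how a gene stood against the median probe, not how much RPA it held. The share of probes well above background was 99.1% to 99.9% for input and 95.3% to 99.4% for IP. Of the 33 probes of rad3, used as a check of the strain labels, 23 had over 4-fold lower input in every rad3Δ array than in any WT array. Replicate numbers mark shared slides. On each slide rad3Δ was at position 4 and WT at position 2, and an effect of position cannot be told apart from that of strain. Whether replicates were separate cultures is not in the labels, and the p-values then cover only the spread between these arrays, which may be technical.

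ipp1 stood at 1.26, 1.1 and 1.60 on the rad3Δ arrays, against -0.14, 0.11 and -0.50 on the WT arrays. The means were 1.32 ± 0.26 in rad3Δ and -0.18 ± 0.31 in WT (SD, n = 3 each). The fitted difference was 1.50 ± 0.17 (SE), or 2.83-fold. The groups did not overlap, and WT ipp1 was a little below the median probe: 29.6% of genes were lower in WT.

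mdb1 stood at 0.82, 0.73 and 1.22 in rad3Δ, against -0.47, -0.66 and -1.04 in WT. Its means were 0.92 ± 0.26 in rad3Δ and -0.72 ± 0.29 in WT, a difference of 1.64 ± 0.17 (SE), or 3.12-fold. Here the WT level was among the lowest of the genome, with 1.42% of genes below it, and all 8 probes were above 0 on every rad3Δ array.

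hcs1 stood at 1.13, 1.01 and 1.18 in rad3Δ, against -0.23, -0.34 and -0.63 in WT. Its means were 1.11 ± 0.08 in rad3Δ and -0.40 ± 0.21 in WT, a difference of 1.51 ± 0.12 (SE), or 2.84-fold. The spread between the rad3Δ arrays was the smallest of the 4 genes. bcs1 stood at 0.77, 0.49 and 0.69 in rad3Δ, against -0.46, -0.75 and -1.23 in WT. Its means were 0.65 ± 0.15 in rad3Δ and -0.81 ± 0.39 in WT, a difference of 1.46 ± 0.16 (SE), or 2.75-fold. bcs1 thus had the lowest level of the 4 in each strain, and 0.989% of genes were lower in WT.

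**Figure D1:**
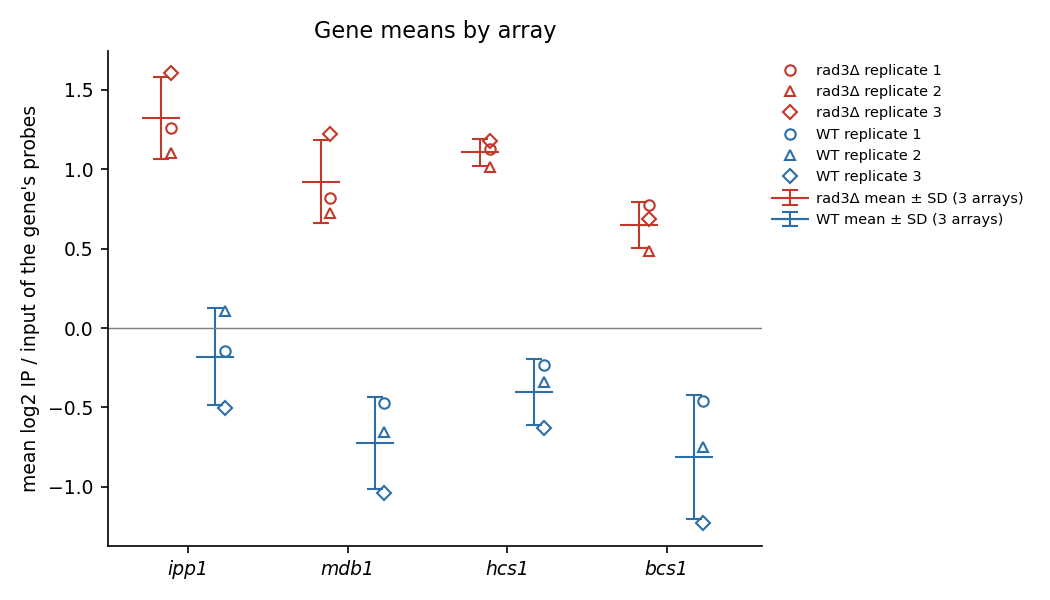
Mean log2 IP over input of each gene's probes (vertical axis) on each array, rad3Δ in red left of WT in blue; crosses with bars are means ± SD of 3 arrays. All rad3Δ points lie above 0 and above every WT point of the same gene, and ipp1 has the highest and bcs1 the lowest mean in both strains.

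The same order of levels, ipp1 then hcs1, mdb1 and bcs1, held in both strain means. Neighbours in this order overlapped between arrays in either strain, and among the rad3Δ arrays ipp1 (lowest 1.1) and hcs1 (lowest 1.01) lay entirely above bcs1 (highest 0.77). Different probes answer differently, so levels between genes are less certain than the strain difference at one gene. The differences over the 4 genes ranged from 1.46 to 1.64, a span close to their SE of 0.12 to 0.17. Slide by slide, the rad3Δ minus WT difference was 0.99 to 2.11 for ipp1, 1.29 to 2.26 for mdb1, 1.35 to 1.81 for hcs1 and 1.23 to 1.91 for bcs1. Over all genes the difference had a median of -0.04 and an SD of 0.29, and the members held places 7, 2, 6 and 10 of 4145 when genes were ordered by it. The gene just after bcs1 in that order, SPAC212.08C, differed by 1.45, and the first, jmj1, by 1.74; both are named here after their values were seen.

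Across all genes, 409 were higher in rad3Δ (9.87%) and 53 lower (1.28%) by limma with Benjamini-Hochberg adjustment at 0.05, and 639 (15.4%) had every rad3Δ array above every WT array. With the slide as a block 623 were higher and 254 lower. All 4 members are in both sets of higher genes, which their choice fixes. Among single probes, 1501 of 42641 were higher (3.52%). Within the genes the probes so called were 3 of 4 for ipp1, 8 of 8 for mdb1, 7 of 7 for hcs1 and 6 of 7 for bcs1, again the contrast the members were chosen by. No probe of the 4 windows was called lower, beside 36 of all probes (0.0844%). The last probe of ipp1 and of bcs1, the one nearest the 3′ end, overlapped between strains.

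The label under which these genes were grouped, gene bodies covered by RPA, does not say where the signal peaked. Probes above 0 on every rad3Δ array were 4 of 4 for ipp1, 8 of 8 for mdb1, 7 of 7 for hcs1 and 6 of 7 for bcs1. The highest rad3Δ mean of 3 neighbouring probes, however, lay outside the gene at 3 of the 4 loci and at the 3′ end of the gene at mdb1. For ipp1 that summit was 2.0, centred 169 bp upstream of the gene start in the gap to pnk1. The single arrays placed it at -169, -373 and -169 bp, so all 3 put it in the gap. For hcs1 it was 1.72 at -650 bp, in the gap to itr1. The single arrays placed it at -650, -1797 and -824 bp, the second of them inside itr1, and the profile there was a plateau rather than a point: probes from -1797 bp to +8 bp all averaged between 1.52 and 1.89.

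For bcs1 the rad3Δ summit was 1.50 at -448 bp, in the gap to a lysine tRNA gene, on the mean and on each of the 3 arrays. Without probes near background it moved to +31 bp, just inside the gene, so its place relative to the gene start rests on those probes. For mdb1 it was 1.50 at +2371 bp, in the last part of a gene 2572 bp long, and single arrays placed it at +2176, +2176 and +2371 bp. Without probes near background it moved to +2723 bp, beyond the 3′ end. In WT the summits were lower, and single arrays placed some of them at positions also found in rad3Δ. For ipp1, WT replicates 1 and 3 placed the summit at -373 bp, at 0.54 and 0.04. For hcs1, WT replicate 3 placed it at -650 bp, at 0.08. For bcs1 and mdb1, WT replicate 1 placed it at -448 bp and +2176 bp, at 0.22 and -0.096. The remaining WT arrays placed it at positions not found in rad3Δ. The highest WT mean of 3 probes was 0.31 for ipp1, at -373 bp, and 0.21 for hcs1, at -1615 bp inside itr1, while for mdb1 and bcs1 it stayed below 0, at -0.34 and -0.28.

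**Figure D2:**
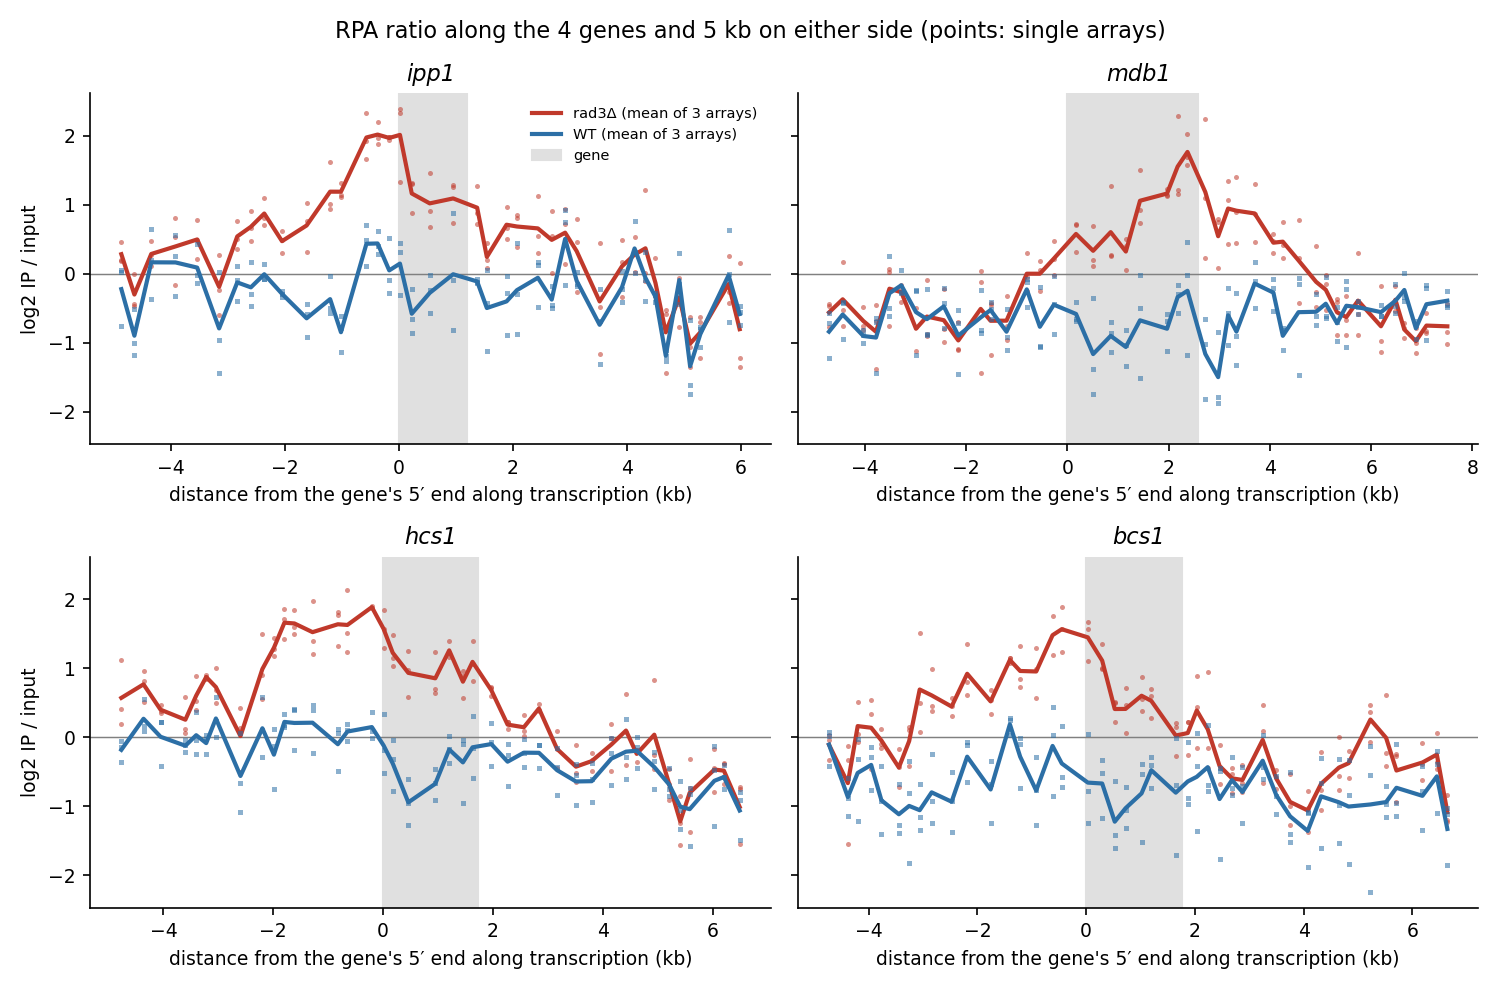
Log2 IP over input (vertical axis) against distance from the gene's 5′ end along its transcription in kb, for each gene and 5 kb on either side; points are single arrays, lines means of 3 arrays, rad3Δ in red and WT in blue, and the gene is shaded. In rad3Δ the line is highest before the gene at ipp1, hcs1 and bcs1 and near the 3′ end at mdb1.

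Inside the genes the rad3Δ mean was higher at the end probe nearer these summits than at the other end probe. In ipp1 it was 2.01 ± 0.59 at the first probe, 19 bp into the gene, and 1.09 ± 0.31 at the last, though rad3Δ replicate 2 stood at 1.33 and 1.29. In bcs1 the first probe averaged 1.45 ± 0.30 and the last 0.02 ± 0.26, the level of the median probe. In hcs1 the ends stood at 1.57 ± 0.27 and 1.09 ± 0.29, and their values overlapped between arrays. The course between them was uneven, with 0.85 at +950 bp and 1.26 at +1203 bp. mdb1 went the other way in its own direction of transcription, with 0.58 ± 0.23 at the first probe and 1.77 ± 0.23 at the last. All 4 genes therefore had one end near a summit and a lower mean at the other, and the higher end was the 5′ end in 3 of them. Different probes answer differently, so these contrasts between probes are less certain than the strain difference at one probe.

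The strain difference itself was highest close to the gene borders. Its highest mean of 3 probes was 1.84 at +19 bp for ipp1, 1.72 at +175 bp for hcs1 and 1.95 at +31 bp for bcs1, each inside the gene at its 5′ end. For mdb1 it was 2.14 at +2723 bp, in the gap beyond the 3′ end. WT averaged -0.24 ± 0.14 in the 5′ part of ipp1 and 0.02 ± 0.25 in its gap, -0.48 ± 0.27 in the 5′ part of hcs1 and 0.04 ± 0.12 in its gap, and -0.90 ± 0.38 in the 5′ part of bcs1 and -0.39 ± 0.48 in its gap. The WT means were thus lower at the start of these 3 genes than in the gaps before them. At mdb1 the WT gap was the lower place, with -1.09 ± 0.36 in the gap and -0.51 ± 0.42 in the 3′ part of the gene.

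The flanking gaps were examined as stretches of their own. Each was taken on the side of the rad3Δ summit, so a high rad3Δ level there follows in part from that choice. The ipp1 to pnk1 gap, 1034 bp between divergent genes and 75.8% A+T, stood at 1.73, 1.69 and 1.95 in rad3Δ, against 0.25, 0.06 and -0.25 in WT. The hcs1 to itr1 gap, 1203 bp between divergent genes and 72.8% A+T, stood at 1.65, 1.42 and 1.93 in rad3Δ, against 0.14, -0.09 and 0.08 in WT. As means of their probes, both gaps were near the genome median in WT and well above it on every rad3Δ array. Single probes of the ipp1 gap differed in WT, with a mean of -0.85 at the probe nearest pnk1. The probe at -373 bp averaged 0.44 and was above 0 on every WT array. The gap of bcs1, 1298 bp to a divergent lysine tRNA gene and 70.6% A+T, stood at 1.29, 0.96 and 1.42 in rad3Δ, against 0.05, -0.33 and -0.90 in WT. The gap of mdb1, 611 bp to the gene SPACUNK4.15 on the same strand and 65.3% A+T, stood at 1.08, 0.24 and 1.35 in rad3Δ, against -0.69, -1.39 and -1.19 in WT. The second rad3Δ array was well below the other 2 in the mdb1 gap but still above every WT array. The gaps of ipp1, hcs1 and bcs1 also hold 3, 1 and 1 annotated non-coding RNAs. Over the 2514 gaps of at least 200 bp the median A+T content was 68.9%.

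Relative to stretches of at least 75% A+T over 500 bp, the loci differed. The rad3Δ summit of ipp1 lay in such a stretch (2139451 to 2140500), which covers nearly all of its gap, and that of mdb1 lay in another, across the 3′ end of the gene. The summits of hcs1 and bcs1 were 19577 and 22416 bp from the nearest one. The 500 bp around these summits were nevertheless 74.0% and 70.4% A+T, against 71.8% and 74.6% around those of ipp1 and mdb1. There are 357 such stretches in the part of the genome where array and reference positions match, and 8.22% of its probes lie within 1 kb of one.

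The contiguous stretch over which every rad3Δ array exceeded every WT array was wider than the gene at each locus. In the stretches of hcs1 and bcs1, 1 probe each lacked a rad3Δ value and was judged on the other 5 arrays. The stretch covered 3435 bp around ipp1 (2137638 to 2141072, 13 probes), of which 2864 bp lay upstream of the gene. It covered 4583 bp around mdb1 (2881081 to 2885663, 16 probes), with 299 bp upstream and 1712 bp downstream of the gene. It covered 4884 bp around hcs1 (2641507 to 2646390, 18 probes), with 2017 bp upstream and 1136 bp downstream. It covered 4316 bp around bcs1 (2682975 to 2687290, 16 probes), with 3089 bp upstream. At ipp1 and bcs1 it ended inside the gene, so the 3′ ends of these 2 genes were outside it. At ipp1 it ended at a probe where WT replicate 2 stood at 0.87, above rad3Δ replicate 1 at 0.74. The rise did not stop there. Over the 2.5 kb downstream of ipp1, rad3Δ averaged 0.47 ± 0.27 and WT -0.22 ± 0.35, without overlap between arrays. Downstream of bcs1 the same means were -0.37 ± 0.28 and -0.76 ± 0.39, and the arrays overlapped. Over all probes with values on every array, 4391 of 42012 (10.5%) had every rad3Δ array above every WT array.

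Within these stretches the mean strain difference was 1.39, 1.54, 1.30 and 1.48 for ipp1, mdb1, hcs1 and bcs1. Outside them, in the rest of each window, rad3Δ averaged 0.11 ± 0.23 around ipp1, -0.52 ± 0.28 around mdb1, -0.03 ± 0.05 around hcs1 and -0.30 ± 0.22 around bcs1. WT averaged -0.30 ± 0.25, -0.57 ± 0.24, -0.37 ± 0.22 and -0.80 ± 0.39 in the same places. The mdb1 window was the one with hardly any difference outside the stretch, 0.05, while the other 3 kept 0.42, 0.34 and 0.50.

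Both channels entered the ratio and were examined apart, as log2 signal relative to the array median. The IP signal of ipp1 was 0.16, 0.44 and 0.44 in rad3Δ, against -1.49, -1.08 and -1.90 in WT. Its input signal was -1.03, -0.64 and -1.14 in rad3Δ, against -1.30, -1.17 and -1.38 in WT. The IP of ipp1 thus differed by 1.83 and the input by 0.35, both upward and without overlap between the strains.

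For mdb1 the IP differed by 1.92 and the input by 0.30, for hcs1 by 1.77 and 0.28, and for bcs1 by 1.56 and 0.12. The IP arrays of the strains did not overlap at any of these genes, and the input arrays overlapped at all 3. On each of the 3 slides the input was higher in rad3Δ than in WT at every one of the 4 genes. A higher input lowers the ratio, so the ratio difference is smaller than the IP difference at each gene. Over the stretches where the ratios did not overlap, input differed by 0.24, 0.22, 0.23 and 0.14, and in the rest of the windows by 0.02, -0.08, 0.05 and -0.02. More DNA in rad3Δ input therefore lay in the same places as more RPA, and its part in the result was not tested.

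**Figure D3:**
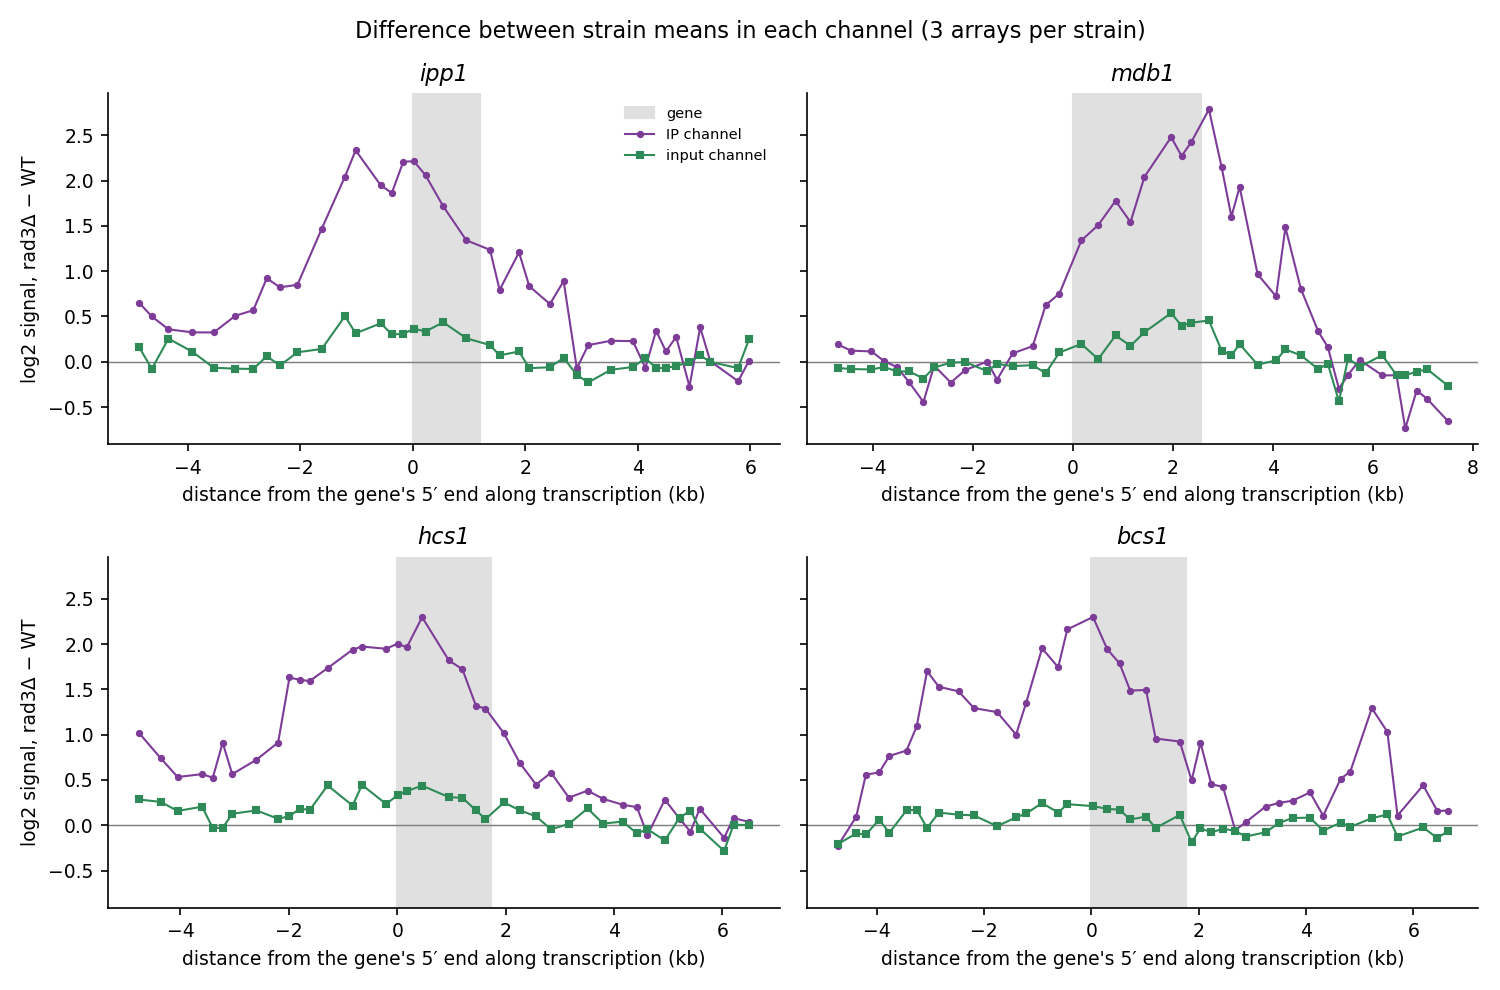
Difference between the rad3Δ and WT means (log2, vertical axis) of the IP channel in purple and the input channel in green, against distance from the gene's 5′ end in kb, with the gene shaded. Over the genes IP differs by 1.56 to 1.92 and input by 0.12 to 0.35. From 2.5 to 5 kb out IP still differs by 0.52 upstream of ipp1, 0.70 upstream of hcs1, and 0.77 upstream and 0.49 downstream of bcs1, and by -0.04 upstream and -0.27 downstream of mdb1.

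Signal strength set limits at single probes. In the genes 1, 3, 2 and 0 probes were not well above background on some array. One probe of mdb1 had IP not well above background on all 3 WT arrays, so its WT level is only a bound. No value in the 4 genes was saturated or carried an outlier flag, and 1 value each was left out in the windows of hcs1 and bcs1. Leaving out all probes near background gave differences of 1.43 for ipp1, 1.49 for mdb1, 1.63 for hcs1 and 1.47 for bcs1.

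The annotated genes within 5 kb were not chosen themselves, though they lie beside genes that were, so their shared direction is no separate evidence. Of the 18 with at least 2 probes, 9 were higher in rad3Δ by limma and 0 lower, beside 9.87% and 1.28% of all genes, and 11 had every rad3Δ array above every WT array, beside 15.4% of all genes. At an unadjusted p under 0.05 the counts were 15 higher and 0 lower, beside 17.2% and 10.3% of all genes. On the side of the rad3Δ summit 6 of 8 were higher, and on the other side 3 of 10, a contrast that was not tested. Neighbours that overlap can share probes, and all 6 probes of mpp10 also lie in pnk1. These counts are therefore not of separate measurements. With the slide as a block 12 of the 18 were higher, beside 15.0% of all genes higher and 6.13% lower. With normexp background correction none of the 18, and no gene at all, passed the threshold, the difference of sfp47 being 0.47, and without the third slide 2 of the 18 did.

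Upstream of ipp1, across the shared gap, pnk1, which encodes a DNA kinase and phosphatase that cleans broken ends, stood at 0.54 ± 0.13 in rad3Δ and -0.20 ± 0.22 in WT and rose by 0.75 ± 0.12 (SE, limma adjusted p = 0.0042). mpp10, for a protein of the U3 small nucleolar ribonucleoprotein, overlaps pnk1, and all 6 of its probes are among the 10 of pnk1. It stood at 0.37 ± 0.13 in rad3Δ and -0.12 ± 0.32 in WT. Its rise of 0.48 (limma adjusted p = 0.0403) was called in 8 of 16 settings. ice2, for a protein of the endoplasmic reticulum, rose by 0.63 (limma adjusted p = 0.00738). Downstream, SPAC23C11.06C, a hydrolase gene whose end overlaps that of ipp1, rose by 0.79 (limma adjusted p = 0.00347). The next genes, the uncharacterized SPAC23C11.07 and php3, a subunit gene of the CCAAT-binding factor, differed by 0.27 and -0.05 and did not pass the test. Because of the shared probes, the values of mpp10 and pnk1 are not separate measurements.

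Beyond the 3′ end of mdb1, SPACUNK4.15, a gene for a cyclic-nucleotide phosphodiesterase, stood at 0.69, 0.40 and 0.94 in rad3Δ, against -0.51, -0.24 and -0.87 in WT. It rose by 1.21 ± 0.18 (SE, limma adjusted p = 0.00274), the largest change among the 18 neighbours, and was called in every alternative but normexp. Without probes near background its difference was 0.73, a value that rests on 1 of its 4 probes. tps3, for a trehalose-phosphate synthase, lies next to it and differed by -0.09. At the 5′ end of mdb1, SPACUNK4.13C, for an NTPase, rose by 0.60 (limma adjusted p = 0.00817), but 1 of its 5 probes also lies in mdb1. iph1, the metallopeptidase gene beyond it, differed by 0.04. Neither tps3 nor iph1 passed the test, with an SE of 0.11 and 0.10.

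Across the gap from hcs1, itr1, which encodes a myo-inositol transporter, stood at 0.96, 0.76 and 1.16 in rad3Δ, against 0.17, 0.03 and -0.18 in WT. It rose by 0.96 ± 0.13 (SE, limma adjusted p = 0.00247), and it too was called in every alternative but normexp. sfp47, for an SH3-domain protein and the next gene, rose by 0.71 (limma adjusted p = 0.00943). On the other side rng2, for the IQGAP-type protein of the cytokinetic ring, begins 173 bp after hcs1 and differed by 0.26 over its 17 probes (limma adjusted p = 0.135). Both divergent partners of the coding pairs, pnk1 and itr1, thus rose along with the member across the gap.

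Around bcs1 1 of 5 neighbours passed the test. cdr1, for a kinase that inhibits Wee1, differed by 0.25 (limma adjusted p = 0.169), and utr4, a methionine salvage gene 288 bp downstream, by 0.31 (limma adjusted p = 0.175). SPAC644.09, for a pyridoxal phosphate homeostasis protein, differed by 0.36 (limma adjusted p = 0.136). med11, for a Mediator subunit 3456 bp downstream, rose by 0.80 ± 0.18 (SE, limma adjusted p = 0.0184), while pkp1, a pyruvate dehydrogenase kinase gene that overlaps it, differed by 0.49 (limma adjusted p = 0.0529). med11 stood at -0.08 ± 0.15 in rad3Δ and -0.88 ± 0.49 in WT, and the genes between it and bcs1 were lower in rad3Δ than med11, utr4 at -0.38 ± 0.30 and SPAC644.09 at -0.70 ± 0.22. The third WT array was the lowest at med11, at -1.45 beside -0.60 and -0.60 on the other 2, and without an array of the third slide its difference was 0.48 and was not called.

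**Figure D4:**
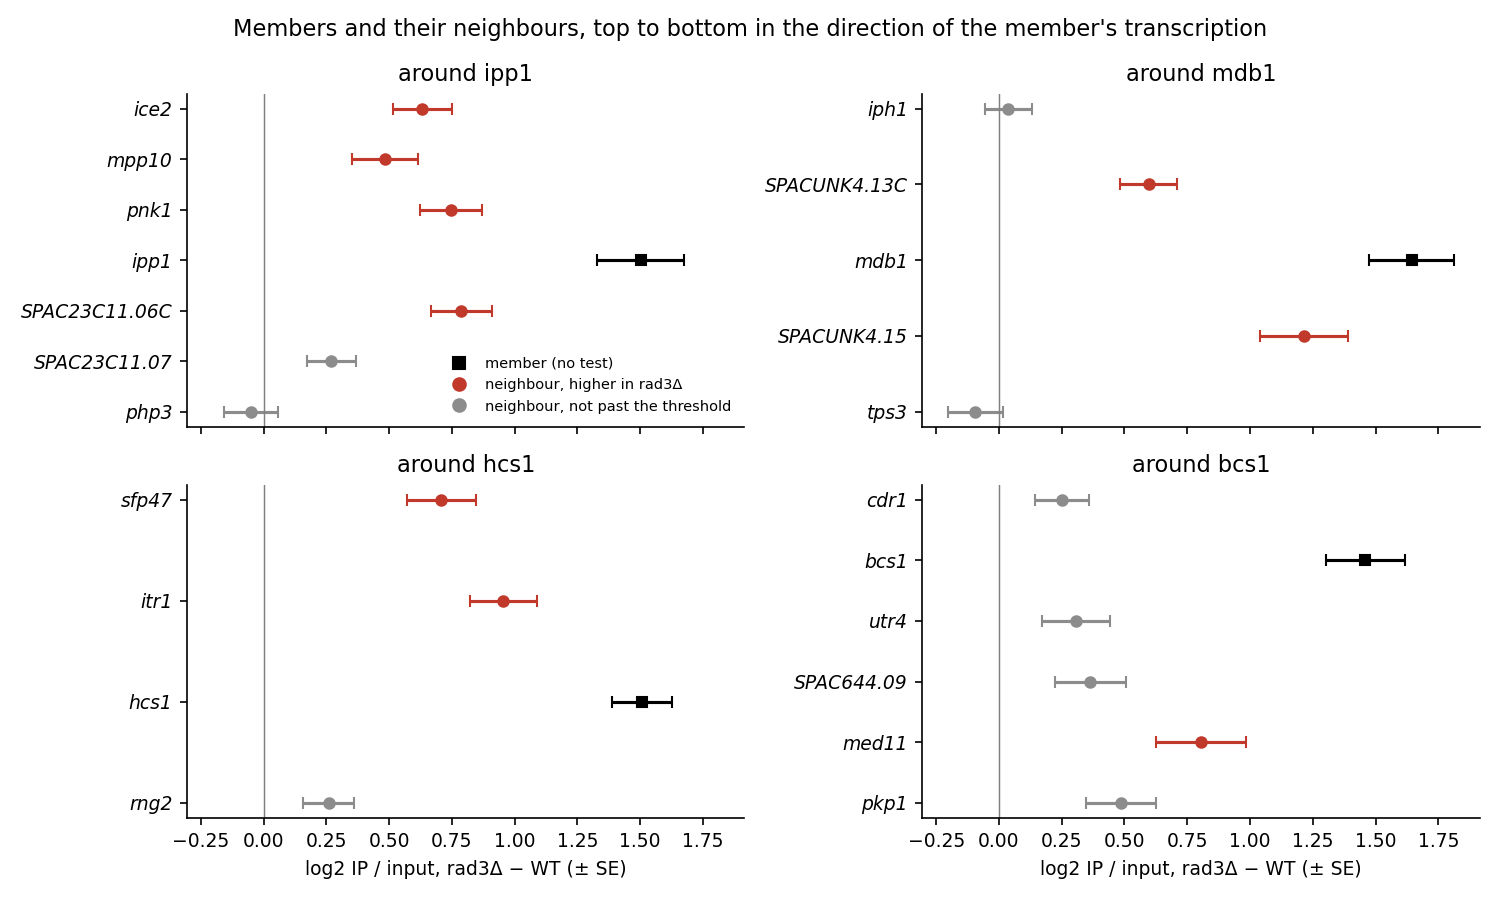
Difference in log2 IP over input, rad3Δ minus WT (horizontal axis, ± SE), of each member as a black square and of the annotated genes within 5 kb as circles, red where higher in rad3Δ by limma and grey where not, ordered top to bottom along the member's transcription. Members stand at 1.46 to 1.64, and the highest neighbours are SPACUNK4.15 at 1.21 and itr1 at 0.96.

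The genes whose values over the 6 arrays were most like each member were found by the root mean squared difference (RMS, log2) over all other genes. Closest to ipp1 was spo20, for a phospholipid transfer protein, with an RMS of 0.13 and means of 1.19 ± 0.17 in rad3Δ and -0.18 ± 0.20 in WT, followed by snu13 (0.19) and bit2 (0.24). Closest to mdb1 was pis1, for phosphatidylinositol synthase, with an RMS of 0.12 and means of 1.0 ± 0.24 in rad3Δ and -0.63 ± 0.20 in WT, followed by glm1 (0.16) and cyc2 (0.18). Closest to hcs1 was ptn1, for a phosphoinositide phosphatase on chromosome II, with an RMS of 0.16, followed by wwm3 (0.16) and seh1 (0.17). Closest to bcs1 was xdj1, for a DNAJ protein on chromosome II, with an RMS of 0.17, followed by ddr48 (0.17) and ppr7 (0.20). Among the members themselves the RMS was 0.25 for mdb1 and bcs1, the closest pair, and 0.69 for ipp1 and bcs1. Every member had a gene elsewhere in the genome whose values were closer to it than those of any other member. That gene was the closest of all genes searched, while the other members are few, so such an outcome was likely from the start. The values compared are also those the members were chosen by. Nothing on how the members relate to each other follows from it.

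Other genes of the members' pathways were counted beside all genes, of which 9.87% were higher and 1.28% lower by limma. At an unadjusted p under 0.05 these shares were 17.2% and 10.3%, and no set test was run. Of 20 measured genes of mevalonate and sterol synthesis besides hcs1, 2 were higher and 0 lower, with a median difference of -0.08 (2 and 1 at an unadjusted p under 0.05). erg24, for a sterol reductase, rose by 0.75 ± 0.15 (SE, limma adjusted p = 0.0101) and erg10, for acetyl-CoA acetyltransferase, which makes the substrate of Hcs1, rose by 0.55 ± 0.13 (SE, limma adjusted p = 0.0282). hmg1, for the reductase that acts on the product of Hcs1, differed by -0.17 (limma adjusted p = 0.305). Of 12 genes of complex III, its assembly and cytochrome c besides bcs1, 1 was higher and 0 lower, with a median of -0.09 (2 and 1 at an unadjusted p under 0.05). This was qcr6, a subunit gene, at 0.87 ± 0.28 in rad3Δ and -0.20 ± 0.26 in WT (difference 1.07 ± 0.17 SE, limma adjusted p = 0.00347). rip1, for the iron-sulfur protein that Bcs1 inserts, differed by -0.21 (limma adjusted p = 0.268).

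Of 10 genes of the DNA damage checkpoint and of phosphorylated H2A besides mdb1, 0 were higher and 2 lower by limma, with a median of -0.20. At an unadjusted p under 0.05 the counts were 1 and 4, beside 17.2% and 10.3% of all genes. rad9, for a subunit of the checkpoint clamp, fell by 0.50 ± 0.10 (SE, limma adjusted p = 0.00813) and hta1, for histone H2A, fell by 0.69 ± 0.12 (SE, limma adjusted p = 0.00664), while with normexp the difference of hta1 was -0.20. crb2, for another BRCT-domain reader of the mark, differed by 0.26 (limma adjusted p = 0.143). Of 6 genes of phosphate, pyrophosphate and polyphosphate metabolism besides ipp1, 0 were higher and 0 lower by limma, with a median of 0.0097 (2 and 2 at an unadjusted p under 0.05). In all, 3 of 48 list genes were higher and 2 lower, beside 9.87% and 1.28% of all genes and a median difference of -0.04 over all genes. With normexp limma called none of the 5, and without the third slide qcr6 alone, while with the slide as a block 4 list genes were higher and 4 lower.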

How the data were processed

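The 6 arrays were grouped by strain and numbered from their titles. The deposited scanner files give each spot's intensity as made by Feature Extraction (10.7.3.1 in the submitters' processing notes, 10.7.1.1 or 10.7.3.1 in the file headers). According to those headers, processed intensities had been background-subtracted and scaled with a linear dye factor, without lowess. The authors' deposited series matrix holds the linear ratio of IP over input and served as an alternative. The labels name RNA in the extraction protocol of these ChIP arrays and give cdc25-23 for the input of rad3Δ replicate 3, and neither point was resolved. The IP was green on replicates 1 and 2 and red on replicate 3.

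Control spots and outlier-flagged spots (2 to 401 per array) were left out. The log2 ratio was centred on each array's median, with no loess or quantile step. A gene's value is the mean of the probes whose middle lies in it. All genes entered 1 fit with strain and dye orientation in limma 3.58.1 (R 4.3.3), with two-sided tests, Benjamini-Hochberg adjustment at 0.05, and 3 residual and 7.02 prior degrees of freedom. In data simulated for this comparison over 4145 genes, 64% of 50 genes changed by 0.5, 92% of 50 changed by 1 and 100% of those changed by 1.5 or 2 (log2) were called, with 5 false calls. The simulated noise was independent between arrays and between genes, while real arrays of a shared slide deviated together. These shares may therefore not hold for the real data. Python 3.11.15 and pandas 2.3.3 served for the rest.

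Array positions, build Spombe:NCBI:Feb2002 in the file headers, were compared with ASM294v3 around each member through probe length and base content, and the best offset was within 3 bp of 0. Members and gene lists were chosen with earlier results of these data known. Named genes are the members, the genes within 5 kb, the 3 likest genes per member, up to 4 called genes per list, and rad3; list genes named as not past the test were added for their link to the member. Of the 64 list genes besides the members 48 were tested, and 4 of the others were left out because their symbol belongs to another gene or they touch the deletion. Same-numbered arrays share a slide, as the file headers show, and their deviations from the strain means correlated at 0.36 to 0.48, so the numbers pair the arrays and the slide as a block is an alternative. The others were normexp with an offset of 50, the series matrix, mode centring, no dye term, flagged spots kept, probes near background left out, each array left out, the third slide left out, medians over probes, genes with 500 bp on either side, other smoothing and, chosen after seeing the data, background-flagged spots left out. The sequence window beside mdb1 is not reported here.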

Additional observations from a re-analysis of the deposited data

How the results depend on the processing

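Over 17 alternatives each, the rad3Δ minus WT difference kept its sign at all 4 members. It lay between 1.20 and 1.66 for ipp1, 1.33 and 1.78 for mdb1, 1.27 and 1.64 for hcs1, and 1.23 and 1.61 for bcs1. With normexp it was 1.28, 1.33, 1.27 and 1.37, and without the third slide 1.20, 1.34, 1.36 and 1.23. Leaving out each array in turn gave 1.20 to 1.66 for ipp1, 1.34 to 1.78 for mdb1, 1.36 to 1.58 for hcs1 and 1.23 to 1.61 for bcs1. Leaving out only 1 array of the third slide equals leaving out both, since the dye term then takes up the lone red array.

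The counts moved more. With the replicate block, 623 genes were higher and 254 lower, and the lists held 4 higher and 4 lower; member differences were unchanged by it. Without the dye term 254 were higher and 15 lower, and with mode centring 450 and 28. With normexp limma called 0 genes in either direction, 0 neighbours and 0 list genes; at an unadjusted p under 0.05, 429 genes were higher and 276 lower, among the higher 10 neighbours. Without the third slide 84 genes were higher and 1 lower, 2 neighbours were higher, and the lists held 1 higher and 0 lower. Without single arrays, 84 to 395 genes were higher and 1 to 61 lower, 2 to 11 neighbours were higher and 0 lower, and list genes numbered 1 to 4 higher and 0 to 3 lower. The cause of these moves was not tested.

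The summit of ipp1 moved to -373 bp by single probes or means of 5 probes, and that of mdb1 to 2176 bp by means of 5 or without the third slide and to 2723 bp without probes near background, which placed that of bcs1 at 31 bp. Without single arrays the summits ranged from -373 to -169 bp for ipp1, 2176 to 2371 bp for mdb1 and -650 to -205 bp for hcs1, and bcs1 stayed at -448 bp. With 6 arrays on 3 slides and 4 to 8 probes per gene, the place of a summit is no finer than the probe spacing, and levels rest on centred ratios without a control IP.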
